A study of Homo sapiens with 6 samples.

Results

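The IL-6 family signals through receptors that share a common chain, and it was examined here through 9 genes in epithelial lung cells exposed to TGF-β1. The genes comprised 4 ligands (IL6, IL11, LIF and CLCF1), 3 receptor chains (IL6ST, OSMR and LIFR), the signal transducer STAT3 and its feedback inhibitor SOCS3. They were taken by symbol from count tables that listed 25737 entries with 24462 different gene symbols, and each of the 9 had 1 entry. The genes had been picked because of their levels across the doses in the same libraries, so their changes are given as a description and without a test.

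The tables came from A549 cells, a lung carcinoma line with epithelial features, and from BEAS-2B cells, an immortalized line of bronchial epithelium, both listed with the genotype WT. Cells of each line were untreated, or received TGF-β1 at 1 or 5 ng/mL over 48 h, and each of the 6 conditions had 1 library. The treated cells were kept in RPMI1640 medium with 1% serum, after growth in 10% serum. The labels do not say which medium or how many hours the untreated cells had, so an effect of the serum change and an effect of TGF-β1 cannot be told apart where these differed. With 1 library a condition, the spread between cultures is unknown. Each cell type is represented by a single established line.

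Some cytokines of this family, such as IL-6 and IL-11, first bind a private receptor chain. Signals of most members run through gp130, the product of IL6ST, which can pair with a relative such as the products of OSMR and LIFR. Janus kinases on these chains phosphorylate STAT3, which enters the nucleus and switches on target genes. SOCS3 is one of these targets and shuts the receptor off again, so its mRNA is often used as a readout of gp130 signaling. IL-11 is a member of the family that is produced by epithelial cells and fibroblasts and is a known target of TGF-β.

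The libraries were prepared with a QuantSeq 3′ kit, which reads the 3′ end of each mRNA, so a count is not divided by transcript length. Total counts ranged from 4120624 to 7841350, and the library of A549 cells at 1 ng/mL was the deepest. The normalized count below is the count after scaling with the trimmed mean of M-values (TMM) to the mean library size. Adding 1 to it and taking log2 gives the ND value, and an ND value of 7 equals a normalized count of 127. A gene is called a DEG here when its fold change (FC) was 2 or more after 1 was added to both normalized counts, with an ND value of 7 or more in at least 1 of the compared libraries. Both limits are those of the study, but its scaling of the ND value is not given in the sources used here. Intervals are exact 95% Clopper-Pearson or Poisson intervals of counting error alone, since the sources name no molecular identifiers and reads need not be separate molecules. For a finite ratio, a count of 0 is replaced by 3 counts. This is under the upper end of its exact 95% interval, so such a ratio is not a lower limit.

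Among 8 genes known to respond to TGF-β, 6 in A549 and 7 in BEAS-2B cells were DEGs with higher counts at 5 ng/mL, beside 16.1% and 7.33% of the entries that reached the minimum. At 1 ng/mL they were 4 and 7, beside 10.9% and 5.66%. The 6 epithelial genes checked summed to between 24907 and 36878 counts in A549 and between 2901 and 3892 in BEAS-2B cells. The keratins KRT7, KRT8 and KRT18 were counted in every library, between 175 and 20603 times. EPCAM and CDH1, which mark epithelial junctions, went from 49 and 640 counts in untreated A549 cells to 2 and 8 counts at 5 ng/mL. In the 3 BEAS-2B libraries EPCAM was at 0 and CDH1 at 0 to 2 counts. KRT14, TP63 and KRT15, markers of airway basal cells, were at 0 in all BEAS-2B libraries, and KRT5 was at 0 to 1 counts. The summed counts of 5 genes that are typically high in A549 cells were between 8799 and 41995 in that line and at most 5 in BEAS-2B cells. The 4 endothelial genes summed to at most 4 counts in any library, and the 6 blood cell genes to between 38 and 110, nearly all from CD14, CD68 and CSF1R. Of the fibroblast genes, DCN and LUM stayed at or below 4 counts in BEAS-2B cells while PDGFRB had 118 to 178, and the 4 genes summed to 10, 103 and 21 counts in the A549 libraries with rising dose. The part of these markers in the results below was not tested.

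Short stretches of promoter are shown first for genes that moved in opposite directions but share the same letters. They come from RefSeq promoters on GRCh38.p14, which cover 250 bases before and 50 bases after each annotated start. Entries were found for 7 of the 9 genes, all but LIF and CLCF1. The AP-1 motif TGANTCA, searched on both strands, was present in 7.71% of 35116 promoters. It occurred once for IL11, whose counts rose with TGF-β1, and once for OSMR, whose counts fell. The IL11 match began 96 bases before the start, and the OSMR match began 3 bases after it. The sequences below run in the direction of the gene, with the match in capitals. The OSMR match overlaps a CANNTG match, a pattern found in 68.7% of promoters.
IL11, chr19:55370545-55370567, minus strand: agggagggTGAGTCAggatgtgt
OSMR, chr5:38846007-38846029, plus strand: cccgcagcTGATTCAtagccccg

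The SMAD motif CAGAC was far more common and was present in 45.3% of promoters. It occurred once each for IL6, IL11 and STAT3, once in the upstream of the 2 listed SOCS3 promoters and 3 times in 1 of the 3 LIFR promoters, so it was also there for genes that were not called. The IL11 and SOCS3 matches are shown because their counts went opposite ways, and both are on the opposite strand, reading GTCTG in the direction of the gene. The SOCS3 match lies within a match of the loose NF-κB motif, which was found in 58.7% of promoters. The letters TTCNNNGAA, the form bound by STAT proteins, were present in 7.66% of promoters, in neither of the 2 SOCS3 promoters and not in that of IL11, but once in 2 of the 3 LIFR promoters. These matches describe the reference sequence, and binding was not measured.
IL11, chr19:55370576-55370596, minus strand: gccgctccGTCTGaatggaaa
SOCS3, chr17:78361091-78361111, minus strand: attcccagGTCTGaccccagc

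The counts of the 9 genes moved apart under TGF-β1. IL11 was a DEG with higher counts in both lines and at both doses, while OSMR and SOCS3 were DEGs with lower counts in all 4 comparisons with the untreated cells. IL6ST was a DEG with lower counts in A549 and stayed just short of the FC limit in BEAS-2B cells. All calls of lower counts among the 9 were lost, and those of IL11 alone were left, when both libraries had to reach the minimum or when the ND value was taken as log2(CPM + 1), from counts scaled to a fixed library total (CPM). STAT3 did not reach the FC limit at any dose. The other 4 genes, IL6, LIF, CLCF1 and LIFR, stayed under the minimum ND value in every library. In a bulk library, fewer cells with an mRNA and less of it per cell cannot be told apart.

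In A549 cells, 4 of the 9 genes were DEGs at 1 ng/mL, where 23.5% of the 7007 entries that reached the minimum were DEGs. Of the 4, 1 was higher and 3 were lower, beside 10.9% and 12.6% of the entries. The number at 5 ng/mL was also 4, again 1 higher and 3 lower, with 33.3% of 7115 entries called, 16.1% upward and 17.1% downward. For BEAS-2B cells at 1 ng/mL, 3 of the 9 were DEGs, 1 higher and 2 lower, beside 14.8% of 6681 entries, with 5.66% upward and 9.13% downward. The count at 5 ng/mL was 3 as well, 1 higher and 2 lower, beside 19% of 6735 entries, with 7.33% upward and 11.6% downward. The genes were selected on these contrasts, so nothing is read from the difference to the background, and both doses of a line share its untreated library. Only 5 of the 9 reached the minimum at all, and OSMR and SOCS3 did so in both lines only through the untreated library, as did IL6ST in A549 cells. The median log2 FC of all 9 genes at 5 ng/mL was −1.42 in A549 and −0.12 in BEAS-2B cells, beside 0.11 and 0.03 for all entries that reached the minimum. Replacing the count of 0 of LIF as described above does not move these medians.

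**Figure D1:**
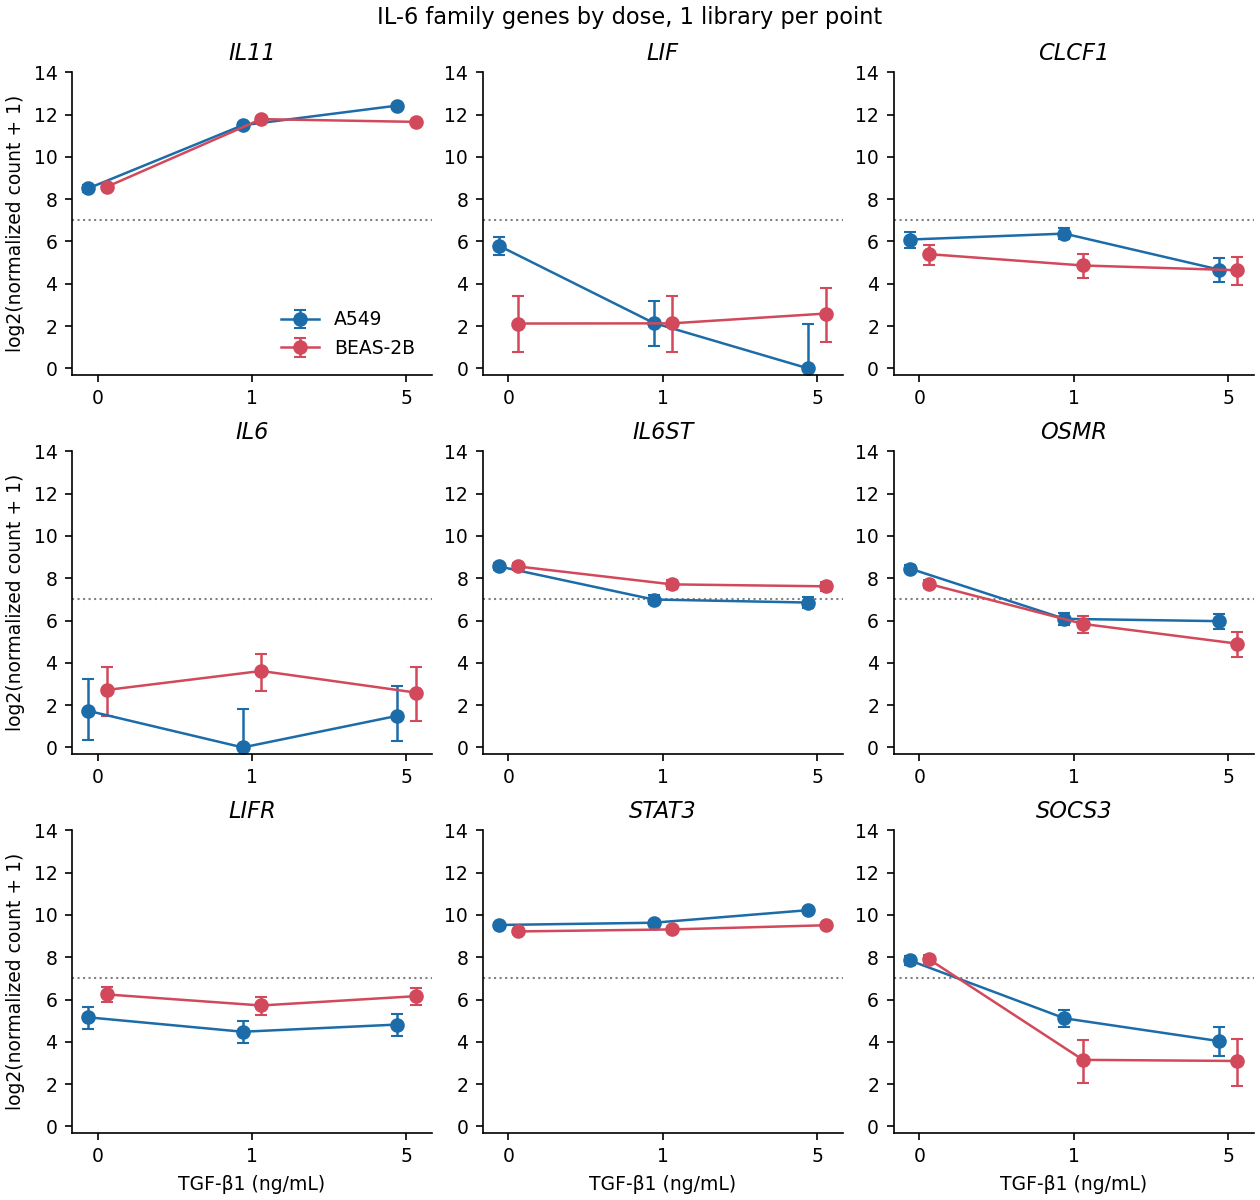
ND value, log2(normalized count + 1), of the 9 genes at 0, 1 and 5 ng/mL TGF-β1 in A549 (blue) and BEAS-2B cells (red), with 1 library per point, exact 95% Poisson intervals of counting error as bars and the minimum ND value of 7 as a dotted line. IL11 climbs from about the level of IL6ST to far above it in both lines, OSMR and SOCS3 drop below the dotted line at both doses, and IL6, LIF, CLCF1 and LIFR never reach it.

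IL11, which encodes the cytokine interleukin 11, had 314 counts in untreated A549 cells, 4197 at 1 ng/mL and 6055 at 5 ng/mL. The BEAS-2B libraries held 343, 3132 and 2557 counts of it at the same doses. Every treated library was thus far above both untreated libraries. In normalized counts, IL11 went from 364 to 5494 in A549 cells at 5 ng/mL, which is 15.1-fold higher (13.48 to 17.0). Its BEAS-2B level went from 383 to 3221, which is 8.42-fold higher (7.52 to 9.45). The corresponding folds at 1 ng/mL were 7.93 (7.07 to 8.92) and 9.21 (8.24 to 10.3). Under scaling by total counts the log2 FC in A549 cells was 2.82 at 1 and 3.71 at 5 ng/mL. With TMM it was 2.98 and 3.91, and both values under total counts lie below the counting intervals. Ordered by count within the library, IL11 moved from rank 2735 to rank 130 of all entries in A549 cells at 5 ng/mL, and from rank 2699 to rank 209 in BEAS-2B cells. It lies on chromosome 19, and no other gene overlaps it in the annotation.

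LIF encodes leukemia inhibitory factor, which binds LIFR and gp130. The A549 libraries held 47, 5 and 0 counts of it, in the order of rising dose. Those of BEAS-2B cells held 3, 3 and 4, which is at the limit of detection in every library. The A549 ratio at 1 ng/mL was 15.9-fold lower (6.33 to 51.1). For the higher dose it was 20.0-fold lower when the count of 0 is replaced by 3 counts, and the counting interval starts at a smaller decrease, 15.6-fold. LIF never reached the minimum ND value and was therefore not a DEG in either line.

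CLCF1, cardiotrophin-like cytokine factor 1, is a ligand that signals through gp130 and LIFR. It had 58, 119 and 27 counts in A549 cells, in the order of rising dose. Scaled for depth, its ratio was 1.22 (0.882 to 1.70) at 1 ng/mL and 2.74-fold lower (1.71 to 4.51) at 5 ng/mL. BEAS-2B cells gave 37, 25 and 19 counts, and both counting intervals included 1. The gene RAD9A, with 311 to 1779 counts, overlaps CLCF1 on the opposite strand without sharing exon bases.

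IL6, which encodes interleukin 6 itself, was close to the floor in all 6 libraries. It was counted 2, 0 and 2 times in A549 and 5, 10 and 4 times in BEAS-2B cells. No change of IL6 was detectable at this depth, and its intervals were wide, from 0.179 to 4.20 for the BEAS-2B ratio at 5 ng/mL.

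**Figure D2:**
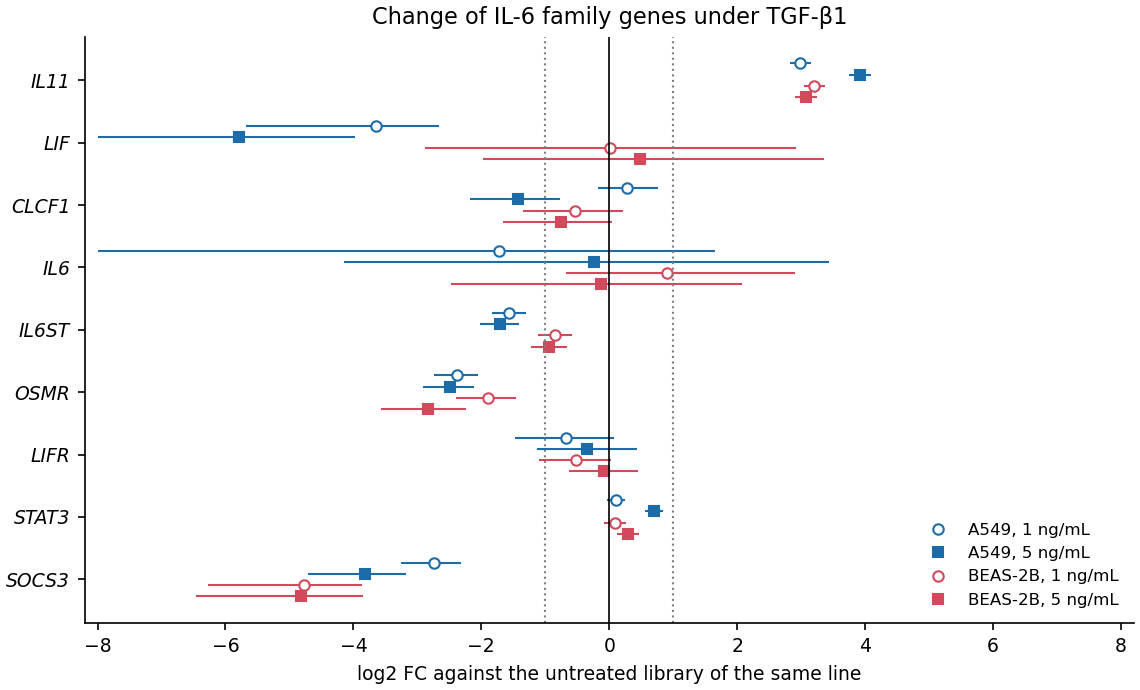
log2 FC (1 added to both normalized counts) of each gene against the untreated library of the same line at 1 ng/mL (open circles) and 5 ng/mL (filled squares) in A549 (blue) and BEAS-2B cells (red), with lines for exact 95% counting intervals of the ratio without the added 1 and dotted lines at an FC of 2. The 4 IL11 points lie between 2.98 and 3.91, the 8 points of OSMR and SOCS3 lie left of the lower dotted line, intervals that reach the left edge are cut there, and the A549 point of LIF at 5 ng/mL rests on a count of 0.

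IL6ST encodes gp130, the chain that receptors of the family have in common. With rising dose it had 324, 184 and 126 counts in A549 and 337, 185 and 155 counts in BEAS-2B cells. The untreated library was the highest in each line. The normalized count in A549 cells was 2.97-fold lower (2.47 to 3.58) at 1 ng/mL and 3.28-fold lower (2.67 to 4.07) at 5 ng/mL. The BEAS-2B level was 1.81-fold lower (1.505 to 2.17) and 1.93-fold lower (1.59 to 2.34), so the FC limit lies inside both intervals and the DEG call at 5 ng/mL depended on the scaling. With total counts alone, IL6ST was a DEG in BEAS-2B cells at 5 ng/mL, with a log2 FC of −1.07 in place of −0.94. The antisense gene AC008914.1 shares 797 exon bases with IL6ST and is not among the entries, so its part in these counts is unknown.

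OSMR encodes the receptor chain that joins gp130 to bind oncostatin M. It was counted 302, 97 and 68 times in A549 and 190, 50 and 23 times in BEAS-2B cells, and the untreated library was again the highest in each line. At 5 ng/mL its normalized count was 5.67-fold lower (4.35 to 7.49) in A549 and 7.32-fold lower (4.73 to 11.8) in BEAS-2B cells. At 1 ng/mL the ratios were 5.25-fold (4.16 to 6.67) and 3.77-fold (2.75 to 5.25) lower. OSMR is therefore the receptor chain with the largest decrease among the 3 in each line. The gene RICTOR, on the opposite strand, shares 229 exon bases with OSMR and had 19 to 83 counts, and whether the counting used the strand is not given in the sources used here.

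LIFR, the receptor chain for leukemia inhibitory factor, is, like OSMR, on chromosome 5. It had 30, 31 and 30 counts in A549 and 67, 46 and 56 counts in BEAS-2B cells. Its ratio at 5 ng/mL was 0.783 (0.456 to 1.34) in A549 and 0.944 (0.650 to 1.37) in BEAS-2B cells. All 4 intervals against the untreated cells included 1, and a decrease as large as that of OSMR lies outside each of them. Its antisense transcript LIFR-AS1 had at most 10 counts.

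STAT3 encodes the transcription factor that carries the signal of these receptors. Its counts were 636, 1154 and 1320 in A549 and 534, 566 and 580 in BEAS-2B cells. After scaling, STAT3 in A549 cells was 1.63-fold the untreated level (1.48 to 1.79) at 5 ng/mL and 1.08-fold (0.976 to 1.19) at 1 ng/mL. The BEAS-2B ratios were 1.23 (1.09 to 1.38) and 1.07 (0.948 to 1.21). None of these reached the FC limit, and at 1 ng/mL the sign of the log2 FC turned under scaling by total counts, to −0.06 in A549 and −0.03 in BEAS-2B cells. At 5 ng/mL in A549 cells that scaling gave a log2 FC of 0.495 in place of 0.70, below the counting interval.

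SOCS3 encodes the inhibitor that binds gp130 and its kinases. The A549 libraries held 198, 49 and 17 counts of it with rising dose. Those of BEAS-2B cells held 216 without TGF-β1, then 7 at 1 ng/mL and 6 at 5 ng/mL. The untreated libraries of the lines did not differ beyond counting error, with a ratio of 1.05 (0.862 to 1.28), and every treated library was far below them. Under 5 ng/mL TGF-β1 the normalized count was 14.9-fold lower (9.06 to 26.0) in A549 and 31.9-fold lower (14.4 to 87.8) in BEAS-2B cells. At 1 ng/mL it was 6.81-fold lower (4.96 to 9.52) and 30.6-fold lower (14.6 to 77.0). The DEG call rests on the untreated libraries, with ND values of 7.85 and 7.92, because SOCS3 was under the minimum in all treated ones.

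Ratios of genes inside the same library do not depend on scaling between libraries. For each 100 STAT3 counts, A549 cells had 31.1 SOCS3 counts (26.4 to 36.6) without TGF-β1, 4.25 at 1 ng/mL and 1.29 (0.748 to 2.07) at 5 ng/mL. BEAS-2B cells had 40.4 (34.4 to 47.5), 1.24 and 1.03 (0.378 to 2.27). The feedback gene was therefore lower relative to its activator in all 4 treated libraries. For each 100 IL6ST counts, IL11 had 96.9, 2281 and 4806 counts in A549 and 102, 1693 and 1650 in BEAS-2B cells. The ligand and the shared receptor chain were thus counted about equally often in untreated cells of both lines and were far apart in all treated ones. For each 100 LIFR counts, OSMR had 1007, 313 and 227 counts in A549 and 284, 109 and 41.1 in BEAS-2B cells, with intervals of 71.4 to 166 at 1 ng/mL and 24.1 to 67.8 at 5 ng/mL in BEAS-2B cells. There OSMR was counted more often than LIFR without TGF-β1, about as often at 1 ng/mL and less often at 5 ng/mL.

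**Figure D3:**
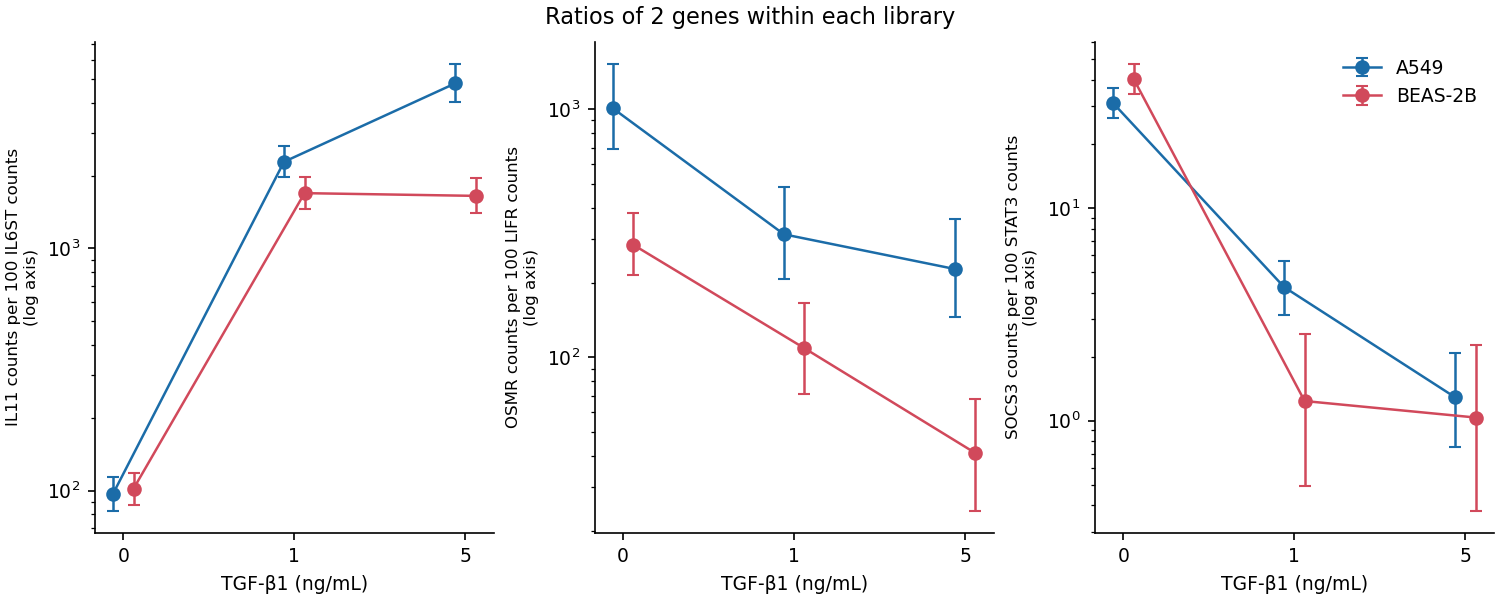
Counts of IL11 per 100 IL6ST counts, of OSMR per 100 LIFR counts and of SOCS3 per 100 STAT3 counts (log axes) in each library, by TGF-β1 dose, for A549 (blue) and BEAS-2B cells (red), with exact 95% counting intervals as bars. IL11 over IL6ST is higher, and the other ratios are lower, in every treated library than in the untreated library of the same line.

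Considering 10 ligands of the family together, most counts fell on IL11. It made up 72.0% (67.6 to 76.2) of the 436 ligand counts in untreated A549 cells and 99.5% (99.3 to 99.7) of 6085 at 5 ng/mL. The BEAS-2B share was 84.7% (80.8 to 88.1) of 405 counts and 98.6% (98.1 to 99.0) of 2593. LIF and CLCF1 held 10.8% and 13.3% of the ligand counts in untreated A549 cells and together under 1% at 5 ng/mL, where CLCF1 had 0.444% and LIF had 0 counts. Shares of 1 total depend on each other, and the shares of LIF and CLCF1 would also be lower if only the IL11 counts had risen.

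**Figure D4:**
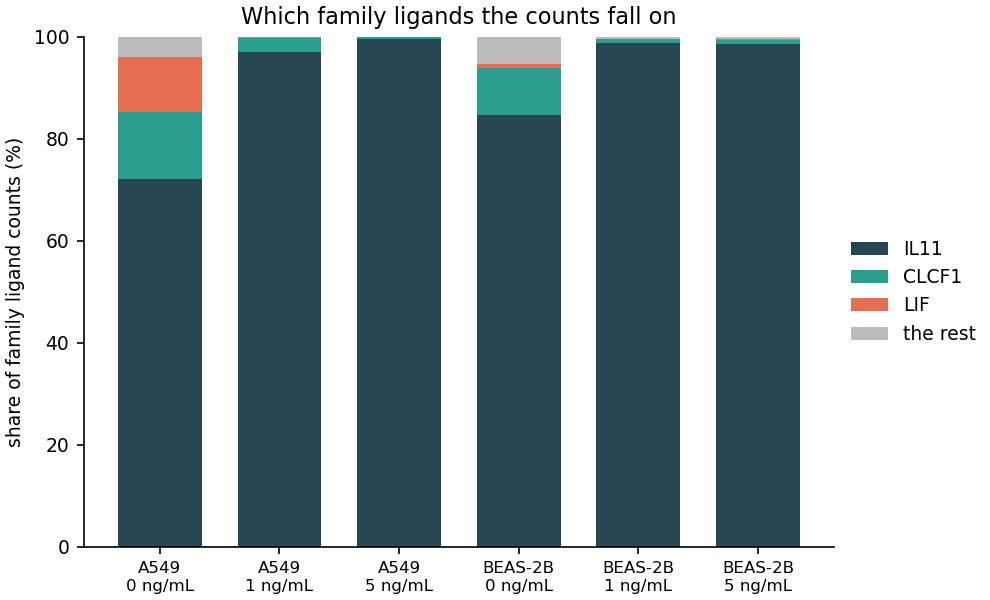
Share of the counts of 10 IL-6 family ligands that fell on IL11, CLCF1, LIF and the rest in each of the 6 libraries, as stacked bars in percent. IL11 is the main part of every bar, from 72.0% to 99.5%, and the parts of CLCF1 and LIF are larger in the untreated library of each line than in its treated ones.

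For IL11, IL6ST, OSMR and SOCS3 the ratio between 5 and 1 ng/mL was closer to 1 than that between 1 ng/mL and no TGF-β1, in both lines. Between the doses, 0 of the 9 genes were DEGs in either line, but only 2 reached the minimum in A549 and 3 in BEAS-2B cells. The others could not be called. Without a minimum, 4 were called in A549 cells (IL6, LIF, CLCF1 and SOCS3) and 1 in BEAS-2B cells (IL6). The changes of IL6 and LIF among these were within counting error. Of the 25737 listed entries, counted or not, 1209 were then called higher and 2086 lower in A549 cells. In BEAS-2B cells 1837 were called higher and 1620 lower. Among all entries that reached the minimum, 3.4% in A549 and 0.904% in BEAS-2B cells were DEGs between the doses. IL11 in A549 cells was 1.91-fold higher (1.83 to 1.98) at 5 than at 1 ng/mL. The BEAS-2B level was 0.914 of the lower dose (0.867 to 0.963). SOCS3 in A549 cells was 2.18-fold lower (1.24 to 4.04) at the higher dose but under the minimum in both libraries, and in BEAS-2B cells its ratio was 0.959 (0.266 to 3.33). CLCF1 in A549 cells was 3.34-fold lower (2.18 to 5.27), also under the minimum. STAT3 in A549 cells was 1.51-fold higher (1.39 to 1.64), more than between 1 ng/mL and no TGF-β1. OSMR in BEAS-2B cells was 1.94-fold lower (1.16 to 3.33) at 5 than at 1 ng/mL, and in A549 cells its ratio was 0.926 (0.669 to 1.28).

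Without TGF-β1, 0 of the 9 genes were DEGs between BEAS-2B and A549 cells, but only 5 of the 9 reached the minimum. Of the 7329 entries that reached it, 37% were DEGs. Without a minimum, 2 of the 9 were called, LIFR and LIF. Of the 25737 listed entries, counted or not, 3509 were then called higher and 5355 lower in BEAS-2B cells. IL11, IL6ST and SOCS3 had untreated ratios of 1.05, 1.00 and 1.05, with all intervals including 1. LIFR was 2.15-fold higher (1.38 to 3.43) and LIF 16.3-fold lower (5.24 to 81.7) in BEAS-2B cells, both under the minimum. OSMR was 1.65-fold lower (1.37 to 1.99) in BEAS-2B cells, CLCF1 1.63-fold lower (1.06 to 2.53) and STAT3 1.24-fold lower (1.10 to 1.39).

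The folds at 5 ng/mL differed between the lines beyond counting error for 4 of the 9 genes, with no replicate behind any of them. The share of all entries that differ in this way was not computed, so nothing is read from this number. The IL11 fold in A549 cells was 1.79 times that in BEAS-2B cells (1.52 to 2.11), and the STAT3 fold 1.32 times (1.14 to 1.55). The same ratios at 1 ng/mL were 0.860 (0.731 to 1.01) and 1.01 (0.861 to 1.18), so neither was apart at the lower dose. The ratio of the IL6ST folds was 0.586 (0.438 to 0.783) at 5 ng/mL and 0.608 (0.467 to 0.791) at 1 ng/mL, a larger decrease in A549 cells. For LIF the upper end of the interval was 0.109 at 5 ng/mL and 0.630 at 1 ng/mL. The SOCS3 folds differed at 1 ng/mL, where the A549 fold was 4.47 times (1.95 to 11.98) the BEAS-2B fold, a smaller decrease in A549 cells, and at 5 ng/mL the interval of 0.785 to 6.76 included 1.

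Beyond the 9 genes, 72 genes of the pathway were read from lists of ligands, receptors, kinases, inhibitors and targets. At 5 ng/mL, 33 of the 72 reached the minimum in A549 cells, of which 5 were DEGs with higher and 9 with lower counts. In BEAS-2B cells 32 reached it, with 4 higher and 6 lower. The shares of all entries called in each direction at this dose are those given above. The median log2 FC of the listed genes that reached the minimum was −0.21 in A549 and −0.31 in BEAS-2B cells.

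Of 6 other ligands, 0 reached the minimum in either line at 5 ng/mL. OSM, the ligand of OSMR, was at 0 in all 6 libraries.

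Of the 7 other receptor chains and shedding proteases, 3 reached the minimum in each line at 5 ng/mL. IL11RA, the private receptor of IL-11, was a DEG with higher counts in A549 cells. It had 62, 287 and 281 counts there, a 3.55-fold higher normalized count (2.69 to 4.75) at 5 ng/mL. The BEAS-2B libraries had 179, 224 and 200 counts, a ratio of 1.26 (1.03 to 1.55), so the lines started apart and were at normalized counts of 255 and 252 at 5 ng/mL. IL6R, the private receptor of IL-6, had 65, 28 and 35 counts in A549 and 27, 6 and 5 in BEAS-2B cells, under the minimum throughout. ADAM10, a protease that cleaves membrane proteins, was 1.84-fold lower (1.53 to 2.21) in A549 and 1.82-fold lower (1.41 to 2.36) in BEAS-2B cells, short of the FC limit in both.

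Of 10 genes of kinases, other STATs and the adaptor phosphatase PTPN11, 0 were DEGs at 5 ng/mL in either line. There 6 reached the minimum in A549 and 5 in BEAS-2B cells, and 33.3% and 19% of all entries that did were DEGs. With so few genes, nothing is read from the 0. JAK1, a kinase bound to gp130, had an A549 ratio of 0.864 (0.774 to 0.963) and was 1.92-fold lower (1.68 to 2.19) in BEAS-2B cells. At 1 ng/mL JAK1 was a DEG with lower counts in BEAS-2B cells, by 2.14-fold (1.88 to 2.45).

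Of 14 other inhibitors, 5 reached the minimum in each line at 5 ng/mL. SOCS7 was a DEG with lower counts in both lines, by 2.84-fold (2.39 to 3.38) in A549 and by 2.49-fold (1.98 to 3.14) in BEAS-2B cells. PIAS1, an inhibitor of activated STATs, was a DEG with lower counts in A549 cells, by 3.37-fold (2.44 to 4.72). SOCS1, another inhibitor of Janus kinases, had at most 2 counts in any library. SOCS2 had 22, 89 and 41 counts in A549 cells, which was under the minimum.

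Of 20 genes that STAT3 is known to activate, 15 reached the minimum in A549 and 16 in BEAS-2B cells at 5 ng/mL. In A549 cells 4 were DEGs with higher and 3 with lower counts, and in BEAS-2B cells 4 and 2. Among all entries that reached the minimum, 16.1% were called upward and 17.1% downward in A549 and 7.33% and 11.6% in BEAS-2B cells. Nothing is read from the difference to these shares. JUNB, a subunit of AP-1, was 2.19-fold higher (1.94 to 2.47) in A549 and 2.99-fold higher (2.60 to 3.45) in BEAS-2B cells. VEGFA, the angiogenic growth factor, was 3.16-fold (2.61 to 3.86) and 4.71-fold (3.98 to 5.61) higher. IER3, an early response gene, had 2551, 14189 and 31481 counts in A549 and 5711, 18664 and 16632 in BEAS-2B cells, which at 5 ng/mL was 9.66-fold (9.28 to 10.1) and 3.29-fold (3.19 to 3.39) higher. IER3 had 6 entries, of which 1 carried all the counts. The AP-1 subunit FOSL2 was called with higher counts in A549 cells, with ratios of 2.31 (1.87 to 2.88) there and 1.09 (0.862 to 1.37) in BEAS-2B cells. The cell cycle gene CCND1 was called with higher counts in BEAS-2B cells, with ratios of 2.12 (1.78 to 2.54) there and 1.29 (1.21 to 1.38) in A549 cells.

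Lower counts were found for the kinase gene PIM3, by 4.20-fold (3.45 to 5.16) in A549 and 5.83-fold (5.08 to 6.72) in BEAS-2B cells. CEBPD, a transcription factor of the acute phase response, was 5.81-fold (5.15 to 6.57) and 16.7-fold (12.4 to 23.1) lower. Its relative CEBPB was 4.54-fold lower (3.94 to 5.24) in A549 cells, while its ratio in BEAS-2B cells was 1.97 (1.70 to 2.29) and just missed the call. PIM1, named after its values were seen, had 84, 16 and 8 counts in A549 and 86, 15 and 1 in BEAS-2B cells, and stayed under the minimum. The target list thus held genes that moved each way, and PIM3 and CEBPD were, like SOCS3, DEGs with lower counts in both lines.

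Of 15 acute phase genes, which encode plasma proteins induced by IL-6 in the liver, 4 reached the minimum in A549 and 3 in BEAS-2B cells, and all of these were DEGs with lower counts at 5 ng/mL. They were FGA, FGB, FGG and C3 in A549 and SAA1, SAA2 and C3 in BEAS-2B cells. Except for C3 in BEAS-2B cells, each passed the minimum only through the untreated library, where it is high, so the shared direction is largely fixed by the minimum and nothing is read from the count. The fibrinogen genes FGA, FGB and FGG were 26.9-fold (17.4 to 44.0), 28.2-fold (21.3 to 37.9) and 32.2-fold (18.2 to 63.1) lower in A549 and had at most 1 count in any BEAS-2B library. SAA1 and SAA2, near-identical serum amyloid genes between which reads can be split, were 11.9-fold (9.21 to 15.6) and 57.6-fold (15.6 to 480) lower in BEAS-2B cells. C3, the complement protein, was 8.22-fold (6.62 to 10.3) lower in A549 and 3.34-fold (2.94 to 3.801) lower in BEAS-2B cells. Beside the fibrinogen values, the summed counts of the 5 genes typical of A549 cells also went down, from 41995 to 8799 at 5 ng/mL. In CPM, which takes account of depth, the sum went from 10133 to 1442. At 5 ng/mL, 7791 of the counts were from ALDH1A1. The part of this decrease in the result was not tested.

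**Figure D5:**
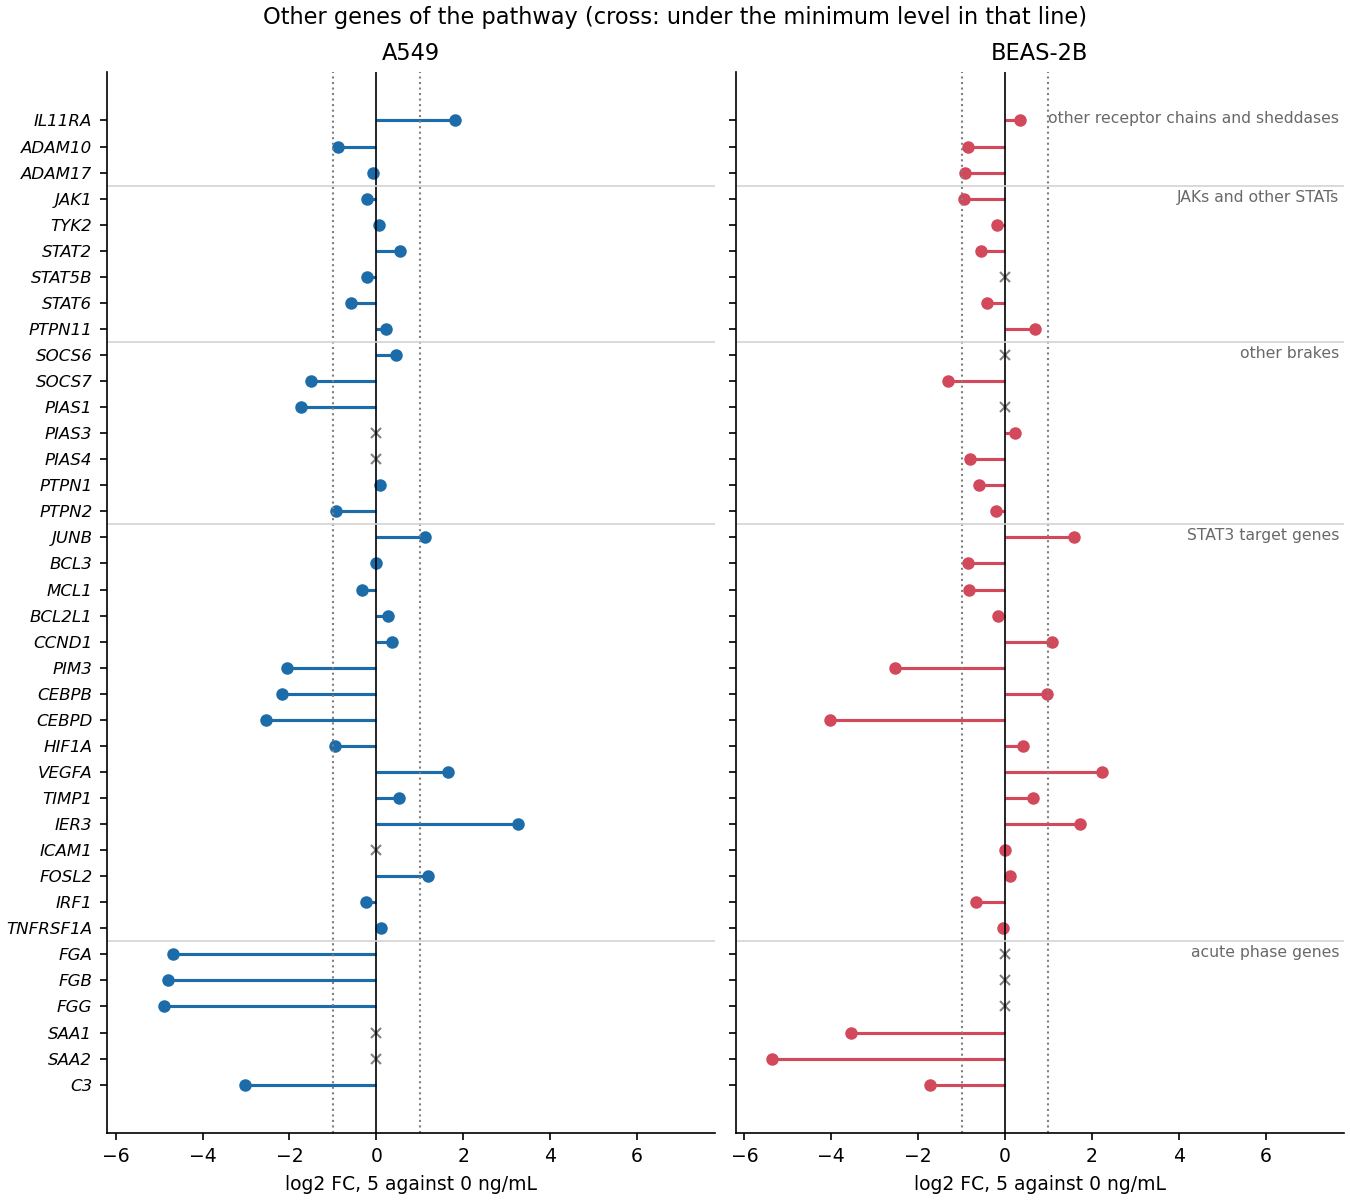
log2 FC at 5 ng/mL against the untreated library, for the listed genes that reached the minimum in at least 1 line, in A549 (left) and BEAS-2B cells (right), grouped by list, with dotted lines at an FC of 2 and a cross where the gene was under the minimum in that line. IER3, VEGFA and JUNB are right of the upper line in both panels, and SOCS7, PIM3, CEBPD and C3 are left of the lower line in both.

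For the 5 genes that reached the minimum, the genes with the most similar course over the 6 libraries were looked up among 8154 others. Likeness was the mean absolute difference of log2 normalized counts after each gene's own mean was taken off, so a smaller value is a closer course. For IL11 the closest were TGFBI at 0.28, TPM1 at 0.29 and ADAM19 at 0.35. TGFBI, which encodes a matrix protein and is 1 of the 8 response genes above, had 3585, 48552 and 34988 counts in A549 and 4298, 30715 and 23154 in BEAS-2B cells. TPM1, a tropomyosin of actin filaments, had 3143, 24419 and 36387 counts in A549 and 2991, 17667 and 19738 in BEAS-2B cells. For SOCS3 they were CAPN12 at 0.35, PLAU at 0.47 and CSTB at 0.49. PLAU, the urokinase gene, had 246, 61 and 21 counts in A549 and 316, 17 and 21 in BEAS-2B cells. CAPN12 shares 868 exon bases with ACTN4 on the opposite strand, so its counts are uncertain. PLAU likewise shares 916 exon bases with C10orf55, which had 0 to 24 counts. ADAM19 shares 62 with CYFIP2, which had 54 to 1012 counts. TPM1 shares 2070 exon bases with TPM1-AS and 691 with AC079328.2. Both are on the opposite strand and are not among the entries, so their part in the TPM1 counts is unknown.

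The closest courses to OSMR were those of MRPL13 at 0.17, MRPL34 at 0.19 and HSBP1L1 at 0.23, of which the first pair encode mitochondrial ribosomal proteins. MRPL13 had 378, 103 and 53 counts in A549 and 197, 46 and 26 in BEAS-2B cells. MRPL34 shares 223 exon bases with ABHD8 on the opposite strand, which had 25 to 65 counts. For IL6ST the closest were HP1BP3 at 0.14 and MUT and ZC3H7B at 0.15. For STAT3, which varied least of the 5, KPNA4, DENND5B and DYNC1LI1 were all at 0.05.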

How the data were processed

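The 6 conditions were measured by QuantSeq 3′-mRNA sequencing, with 1 library each, and samples were grouped by their labels. The values the authors deposited are unnormalized whole-number read counts, listed by gene symbol. The submitters' processing notes name Bowtie2, bedtools and hg19, and the paper names ExDEGA for quantification. Versions, filters and the use of strand in counting are not given in the sources used here. All 6 columns of values were mapped, and 0 were left out.

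Counts were scaled over the 6 libraries by TMM (edgeR 4.0.16, R 4.3.3), and further steps used Python 3.11.15 with scipy 1.17.1. The FC and ND limits of the DEG criteria are those of the study and were applied to the whole table. The scaling behind the study's ND value, and which library has to reach the limit, are not given in the sources used here, so the criteria may differ from those of the study in both. Since each condition had a single library, conditions were compared without a test, and the text holds no p-value. Shares have exact binomial intervals. The steps were tried on simulated counts with counting error alone, in which well-counted genes had large changes. Those counts had no spread between cultures, so they say nothing about that spread or about genes with few counts. The members and lists were chosen with earlier results of these data known. All 9 members are named, as are listed genes past the DEG criteria at 5 ng/mL in at least 1 line, up to 3 others per list, and the 3 nearest genes of each member that reached an ND value of 7. Of the listed genes, 2 are not reported here, and counts over the lists leave them out. Where a listed symbol had several entries, the one with the most counts was used.

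Overlaps of genes were read from the GENCODE annotation of GRCh38 and promoters from RefSeq on GRCh38.p14, which is not the build of the counts. Alternatives were DESeq2 1.42.0 size factors, total counts, upper quartile factors, TMM within each line, a filter of at least 10 counts in a library, entries summed per symbol, pseudocounts of 0.1 and 5, limits of 1.5 and 3 for the FC, and other minimums of the ND value.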

Additional observations from a re-analysis of the deposited data

Results flagged for a closer look

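Genes were flagged from the members and the 72 listed genes. The ratio to the untreated library had to be above 1 at each dose in 1 line and below 1 in the other. The interval of the A549 fold over the BEAS-2B fold at 5 ng/mL also had to exclude 1. That these intervals exclude 1 is therefore fixed by the selection, and nothing is read from it. STAT2 was the only flagged gene for which all 4 ratios to the untreated library differed from 1 beyond counting error. With 1 library per condition the difference was not tested, and the intervals cover counting error only. For LIF, the upper interval end of the A549 fold over the BEAS-2B fold at 5 ng/mL was 0.109, resting on 0 to 4 counts outside untreated A549 cells and 5 counts at 1 ng/mL in A549 cells. The BEAS-2B ratios of LIF, 1.01 (0.135 to 7.53) and 1.51 (0.255 to 10.3), show no direction. For CEBPB the same ratio of folds was 0.112 (0.0907 to 0.138), with 892, 600 and 251 counts in A549 cells and 280, 310 and 489 in BEAS-2B cells at 0, 1 and 5 ng/mL. For HIF1A, which encodes a subunit of the hypoxia factor, it was 0.387 (0.328 to 0.456), with normalized counts of 782, 492 and 402 in A549 cells and 685, 745 and 911 in BEAS-2B cells. The BEAS-2B ratios of CEBPB, 1.12 (0.947 to 1.32), and of HIF1A, 1.09 (0.973 to 1.22), were within counting error at 1 ng/mL. For STAT2 it was 2.15 (1.54 to 3.01), with normalized counts of 112, 161 and 165 beside 265, 172 and 181. PTPN1, a phosphatase of Janus kinases, had a ratio of folds of 1.62 (1.44 to 1.81), BCL3 of 1.81 (1.48 to 2.22) and BCL2L1 of 1.36 (1.09 to 1.70). In A549 cells PTPN1 had ratios of 1.04 (0.954 to 1.14) and 1.07 (0.973 to 1.17) at 1 and 5 ng/mL, and BCL3 had 1.00 (0.910 to 1.10) at 5 ng/mL, all within counting error, as was the BEAS-2B ratio of BCL2L1 at 5 ng/mL, 0.893 (0.737 to 1.08).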

How the results depend on the processing

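No paired analysis was possible because the labels carry no replicate numbers and each condition has 1 library, and leaving out a library would have removed its condition. Of 504 values of log2 FC of the 9 genes under alternatives, 499 moved by less than their counting interval, 5 moved by more and 0 of the called ones turned sign. The 5 were all in A549 cells against the untreated library. They were IL11 and STAT3 at both doses under total counts, and LIF at 5 ng/mL with a pseudocount of 5. The number of DEGs among the 9 depended on the minimum level. With an ND value of 7 required in both libraries it was 1 in each of the 4 comparisons with untreated cells, and when the ND value was taken as log2(CPM + 1) it was also 1 in each, IL11 in all cases. Without a minimum it was 4 between the doses in A549 cells, 1 between them in BEAS-2B cells and 2 between the untreated lines. With an FC limit of 1.5 it was 2 between the doses in A549 cells and 1 between the untreated lines. At that limit the whole table had 543 higher and 545 lower between the doses in A549 cells. Between the untreated lines it had 2264 higher and 2068 lower in BEAS-2B cells. The whole-table numbers without a minimum are given above. Scaling by total counts shifted the median of all genes by −0.17 and −0.20 (log2) in A549 cells at 1 and 5 ng/mL and by −0.13 in BEAS-2B cells at both doses. Under that scaling the DEGs of the whole table split into 536 higher and 1131 lower in A549 cells at 1 ng/mL, against 766 and 883 with TMM, and into 798 and 1564 at 5 ng/mL, against 1146 and 1220. In BEAS-2B cells they split into 307 and 819 at 1 ng/mL, against 378 and 610, and into 373 and 1013 at 5 ng/mL, against 494 and 783. With the minimum in both libraries the whole-table DEGs fell in number to 389 higher and 358 lower in A549 cells at 1 ng/mL, 651 and 448 at 5 ng/mL, and in BEAS-2B cells to 185 and 263, and 246 and 329. With log2(CPM + 1) they were 228 and 213, 420 and 308, 124 and 148, and 158 and 199, in the same order. The 4 genes whose folds differed between the lines stayed 4 in number under each scaling and under summed entries, alternatives chosen after seeing the data.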
